A study of Homo sapiens and Mus musculus with 16 samples.

Results

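P-body-seq counts of mouse embryonic stem cells (mESC) were examined for 10 genes of the naive pluripotency network, chosen by symbol: Fgf4, Tcl1, Esrrb, Nr0b1, Klf2, Klf4, Klf5, Zfp42, Tbx3 and Tfcp2l1. All 10 were among the 15881 genes of the mouse count table, and all 10 were counted in every mESC library. P-bodies were sorted from cell lysate as fluorescent particles carrying LSM14A, a P-body protein, fused to GFP. The mESC carried the LSM14A-GFP fusion in the KH2 line, were labelled as grown in serum with LIF, and gave total RNA for 2 P-body libraries and 2 cytoplasm libraries out of the 16 libraries of the series. The fusion came from a lentiviral construct driven by an EF1a promoter, according to the methods of the study, and is present in the cells of both fractions. Those methods also describe mouse ES cells kept in 2i and LIF, whereas the labels of these 4 libraries give serum with LIF. The cytoplasm libraries were made from the fraction before sorting, which still holds P-bodies, so a P-body to cytoplasm ratio compares a purified part with the whole it was taken from. The labels do not say whether the 2 libraries of a fraction came from separate cultures, and p-values therefore measure only the spread between these libraries.

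Naive pluripotency is the state of the early epiblast and of ES cells that are kept from differentiating. A network of transcription factors, with OCT4 (Pou5f1), SOX2 and NANOG at its core, maintains it together with signals: LIF activates STAT3, inhibition of GSK3 relieves repression by TCF7L1, and FGF4 secreted by the cells themselves activates ERK and prepares them for exit. P-bodies are cytoplasmic condensates of RNA and RNA-binding proteins, known as places where translationally repressed mRNAs accumulate. A P-body-enriched transcript here is one with a higher normalised count in sorted P-bodies than in cytoplasm.

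The 10 transcripts were divided between the fractions. Zfp42, Klf4 and Tbx3 were P-body enriched, Esrrb, Tcl1, Fgf4 and Tfcp2l1 were P-body depleted, and Klf2, Klf5 and Nr0b1 did not pass the test. In the whole table, 25.8% of genes were called enriched and 20.6% were called depleted, so 3 and 4 of 10 members were set against those shares and not against 0. Calls were made with edgeR's quasi-likelihood test at a Benjamini-Hochberg adjusted p under 0.05 over all 15881 genes. Both P-body libraries lay above both cytoplasm libraries for 4 members (33.6% of all genes) and below them for another 4 (39.4% of all genes). In these bulk libraries, fewer cells holding a transcript and less of it per cell cannot be told apart. The median log2 change, P-body minus cytoplasm, was 0.15 over the members and -0.11 over all genes tested. Among the 12110 genes whose mean level reached 1 CPM (counts scaled to a common library total), which included all members, the median was 0.04, with 33.8% enriched and 20.2% depleted.

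Levels below are CPM scaled with TMM factors, which align the bulk of genes between libraries. Library totals were 11721055 and 10871736 counts for P-bodies and 8148119 and 8433915 for cytoplasm, and a floor of 3 counts corresponded to between 0.295 and 0.319 CPM. The TMM factors separated the fractions, at 0.868 and 0.872 for P-bodies against 1.15 and 1.14 for cytoplasm. Ribosomal RNA genes took 3.16% and 3.09% of P-body counts against 9.63% and 11.0% of cytoplasm counts. The scaling sets the zero of every log2 change: with library totals alone, the median of all genes moved by -0.40, and the calls went from 4104 enriched and 3271 depleted, or 55.6% enriched, to 2591 and 6609, or 28.2% enriched. The members' median stood above that of all genes by 0.27 with TMM and by 0.26 with library totals alone. Summed over the 10 members, levels were 4169 and 4179 CPM in P-bodies and 4082 and 4077 CPM in cytoplasm, and Tfcp2l1 alone gave more than all other members together in each library.

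**Figure D1:**
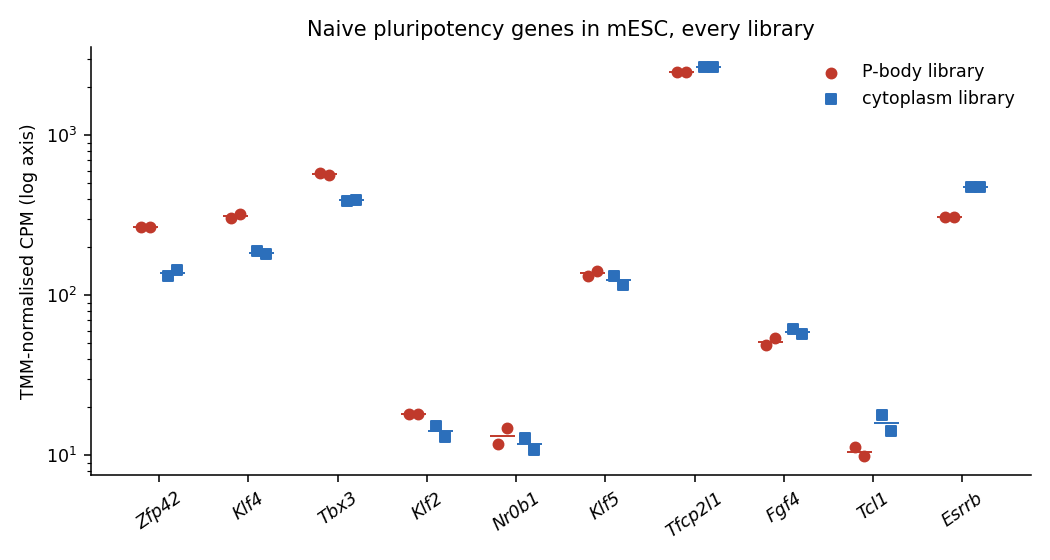
TMM-normalised CPM (log axis) of each of the 10 genes in mESC, with a point for every P-body library (red circles) and cytoplasm library (blue squares) and a line at each mean of 2 libraries. Zfp42, Klf4 and Tbx3 have both red points above the blue, Esrrb has both below, and the points of Nr0b1 and Klf5 overlap between fractions.

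Fgf4 is the secreted ligand of the set. Its level was 48.6 and 53.8 CPM in P-bodies and 61.4 and 57.1 CPM in cytoplasm. Both P-body values were the lower ones. The log2 change was -0.21 ± 0.09 (SE, n = 2 per fraction, edgeR adjusted p = 0.0466), close to the threshold. The value was -0.61 with library totals alone and -0.44 with upper-quartile factors, both called, and -0.30 with filterByExpr, also called. The call was lost with DESeq2 (adjusted p = 0.198), with ribosomal RNA genes left out (0.0593), and without P-body library 1 (-0.14, adjusted p = 0.344), P-body library 2 (0.0569) or cytoplasm library 1 (0.212). In mm10 the gene lies at chr7:144847367-144865243.

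Tcl1 encodes a cofactor that augments the kinase AKT. It was a low transcript, with 11.2 and 9.91 CPM in P-bodies and 17.7 and 14.2 CPM in cytoplasm, from 114, 94, 167 and 137 counts. The cytoplasm libraries were both higher, though they differed from each other by more than the P-body libraries did. The log2 change was -0.59 ± 0.17 (SE, n = 2 per fraction, edgeR adjusted p = 0.00701). It did not pass with DESeq2 (adjusted p = 0.0615), without P-body library 2 (0.0856) or without cytoplasm library 1 (0.0987). The gene lies at chr12:105216750-105222793 (mm10).

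Esrrb and Nr0b1 are nuclear receptors without a known physiological hormone. Esrrb, an activator of the naive network that TCF7L1 represses, stood at 308 and 309 CPM in P-bodies and at 474 and 476 CPM in cytoplasm. The libraries of a fraction were almost identical, and the P-body to cytoplasm ratio was 0.649 and 0.650 for replicate numbers 1 and 2. Its log2 change of -0.62 ± 0.04 (SE, n = 2 per fraction, edgeR adjusted p = 3.45e-12) was the lowest of the members, and its rank placed 24.4% of all genes below it. Esrrb kept its call and direction in all 11 alternative settings, with values from -1.03 to -0.60.

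Nr0b1 (DAX1) lacks the usual DNA-binding domain of a nuclear receptor and acts as a corepressor. Its level was 11.7 and 14.8 CPM in P-bodies and 12.8 and 10.8 CPM in cytoplasm, from 119, 140, 120 and 104 counts. The fractions overlapped, and the ratio was 0.918 for replicate number 1 and 1.37 for number 2. The log2 change of 0.17 ± 0.18 (SE, n = 2 per fraction, edgeR adjusted p = 0.464) did not pass the test, and it was -0.23 with library totals alone and -0.06 with upper-quartile scaling. At these counts a difference of this size was not detectable. Esrrb lies at chr12:86361117-86521628 and Nr0b1 at chrX:86191764-86195947 (mm10).

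Klf2, Klf4 and Klf5 are Krüppel-like transcription factors that bind GC-rich and CACCC sites through closely related zinc fingers and can stand in for each other in maintaining ES cells. Klf4 was P-body enriched and the others did not pass the test. Klf4 reached 302 and 322 CPM in P-bodies and 189 and 180.4 CPM in cytoplasm, with every P-body value above every cytoplasm value. Its log2 change was 0.76 ± 0.05 (SE, n = 2 per fraction, edgeR adjusted p = 2.64e-12), and 83.0% of all genes lay below it. In 11 of 11 alternatives it kept its call, between 0.35 and 0.80.

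Klf5 was lower, at 131 and 143 CPM in P-bodies and 133 and 116 CPM in cytoplasm. The first P-body library lay between the cytoplasm libraries. The log2 change of 0.14 ± 0.07 (SE, n = 2 per fraction, edgeR adjusted p = 0.0955) did not pass. Its sign turned with the scaling, and its call moved with the scaling and with single libraries. It was called depleted with library totals alone (-0.27, adjusted p = 0.00112), did not pass at -0.09 with upper-quartile scaling, and was called enriched without P-body library 1 (0.20, adjusted p = 0.0368) or cytoplasm library 1 (0.23, adjusted p = 0.00877).

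Klf2 was the lowest of the Krüppel-like members, at 18.1 and 18.1 CPM in P-bodies and 15.3 and 13.1 CPM in cytoplasm, from 184, 172, 144 and 126 counts. The fractions did not overlap. The log2 change of 0.35 ± 0.16 (SE, n = 2 per fraction, edgeR adjusted p = 0.0678) did not pass, was -0.05 with library totals alone, and passed only without cytoplasm library 1 (0.47, adjusted p = 0.0472). Between Klf4 and Klf5 the log2 changes differed by 0.62 with a standard error of 0.08, and the replicate ranges did not overlap. A difference between genes of the same libraries hardly moves with the scaling, which shifts all genes together. Klf2 was lower than Klf4 by 0.40 with a standard error of 0.16, and its range overlapped that of Klf5.

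The coding sequences of Klf4 and Klf5 end in the zinc fingers that define the family. That stretch is shown because these paralogs differed most in log2 change among the Krüppel-like members. The Klf4 stretch covers coding bases 1204 to 1446 of 1452, on the minus strand between the ends of chr4:55528131-55529790 (mm10, exons 4 to 5 of 5, coding). The Klf5 stretch covers coding bases 1090 to 1332 of 1341, on the plus strand of chr14:99302242-99313320 (mm10, exons 2 to 4 of 4, coding). Introns are left out, both are written 5′ to 3′ from the GENCODE M21 transcripts, and capitals mark the bases at which they differ.
Klf4: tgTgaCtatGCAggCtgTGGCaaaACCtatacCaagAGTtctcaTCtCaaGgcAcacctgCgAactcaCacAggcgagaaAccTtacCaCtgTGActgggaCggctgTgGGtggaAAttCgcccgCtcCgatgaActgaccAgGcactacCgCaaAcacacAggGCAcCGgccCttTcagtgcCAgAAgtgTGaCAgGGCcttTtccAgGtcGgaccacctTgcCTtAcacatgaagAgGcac
Klf5: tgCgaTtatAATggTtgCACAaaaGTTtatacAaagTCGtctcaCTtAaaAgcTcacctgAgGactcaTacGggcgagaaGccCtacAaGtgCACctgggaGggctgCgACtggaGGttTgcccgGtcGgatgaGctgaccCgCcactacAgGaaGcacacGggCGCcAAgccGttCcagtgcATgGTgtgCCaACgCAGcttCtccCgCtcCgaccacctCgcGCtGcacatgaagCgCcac

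Of the 243 aligned bases, 166 were identical (68.3%), and 45 of the 77 differing bases were at the third position of a codon. The window was the best match of this length near the coding end and was chosen for each pair on its own. Identity over such windows was 78.6% between Klf2 and Klf4 and 70.4% between Klf2 and Klf5. These windows are not exactly the stretches printed above. No stretch of 31 bases was shared among the transcripts of the 3 genes, so a read can match more than 1 of them only over shorter runs. The whole genes lie at chr4:55527143-55532466 (Klf4), chr14:99298691-99315036 (Klf5) and chr8:72319033-72321656 (Klf2).

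Zfp42, known as REX1, is a zinc finger protein related to YY1 and a widely used marker of naive ES cells. Its level was 269 and 267 CPM in P-bodies and 132 and 143 CPM in cytoplasm. Every P-body value was well above every cytoplasm value, with ratios of 2.04 and 1.87 for replicate numbers 1 and 2. The log2 change of 0.96 ± 0.05 (SE, n = 2 per fraction, edgeR adjusted p = 7.17e-14) was the highest of the members and lay above 88.1% of all genes. It kept its call in all 11 alternatives, between 0.56 and 1.02. Enrichment of sorted P-bodies over the cytoplasm fraction does not give the share of Zfp42 molecules that lie in P-bodies, which these libraries do not measure. By single-molecule imaging, the paper reports Zfp42 RNA as mostly cytoplasmic in naive mouse ES cells and mostly in P-bodies in primed ones. Its methods keep naive mouse ES cells in 2i and LIF, whereas these libraries are labelled serum with LIF. Of the 31-base stretches in its transcript, 255 of 1807 (14.1%) also occur in the pseudogene Zfp42-ps1, which has no row in the count table, so reads of that copy could be counted as Zfp42. The gene lies at chr8:43295063-43306980 (mm10).

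Tbx3 is a T-box transcription factor that acts downstream of PI3K signalling in ES cells. It stood at 582 and 567 CPM in P-bodies and 389.9 and 392.4 CPM in cytoplasm. The gap between fractions was far larger than the gap within them, and the ratios were 1.49 and 1.45. The log2 change was 0.55 ± 0.04 (SE, n = 2 per fraction, edgeR adjusted p = 1.71e-11), and it kept its call in all 11 alternatives, between 0.15 and 0.60. The gene lies at chr5:119670669-119684724 (mm10).

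Tfcp2l1, a CP2-family transcription factor induced by LIF and STAT3, was the most abundant member. It gave 2488 and 2474 CPM in P-bodies and 2657 and 2673 CPM in cytoplasm, from 25300, 23460, 25004 and 25801 counts. The P-body values were both lower by a small margin that these counts resolve. The log2 change was -0.10 ± 0.03 (SE, n = 2 per fraction, edgeR adjusted p = 0.00961), almost equal to the median of all genes, -0.11. The call was lost without P-body library 2 (-0.07, adjusted p = 0.196). The gene lies at chr1:118627945-118685168 (mm10).

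Ordered by log2 change, neighbouring members were not all separable. The replicate ranges of Klf2 and Nr0b1, of Nr0b1 and Klf5, of Tfcp2l1 and Fgf4, and of Tcl1 and Esrrb overlapped. Zfp42 exceeded Klf4 by 0.21 with a standard error of 0.07, and Klf4 exceeded Tbx3 by 0.20 with a standard error of 0.06, both without overlap. The order of levels differed from the order of log2 changes. Per kilobase of transcript, the mean level in P-bodies was 268 CPM for Tfcp2l1, 146 for Zfp42, 118 for Tbx3, 103 for Klf4, 73.5 for Esrrb, 40.9 for Klf5, 16.9 for Fgf4, 9.81 for Klf2, 8.13 for Tcl1 and 7.32 for Nr0b1. In cytoplasm the same measure was 288 CPM for Tfcp2l1, 113 for Esrrb, 80.6 for Tbx3, 74.8 for Zfp42, 60.9 for Klf4, 37.2 for Klf5, 19.6 for Fgf4, 12.3 for Tcl1, 7.68 for Klf2 and 6.51 for Nr0b1. By this measure Esrrb was above Zfp42, Tbx3 and Klf4 in cytoplasm and below all of them in P-bodies. Zfp42 was below Tbx3 in cytoplasm and above it in P-bodies. These orders rest on the length of the transcript chosen for each gene, which may differ from the isoforms counted. Without division by length, Zfp42 (mean 268 CPM) was below Esrrb (308) and Tbx3 (574) in P-bodies. Between the lowest members the libraries came close: Tcl1 and Nr0b1 overlapped in P-bodies, and the lower Klf2 library in cytoplasm (7.07 CPM per kilobase) was next to the higher Nr0b1 library (7.05).

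**Figure D2:**
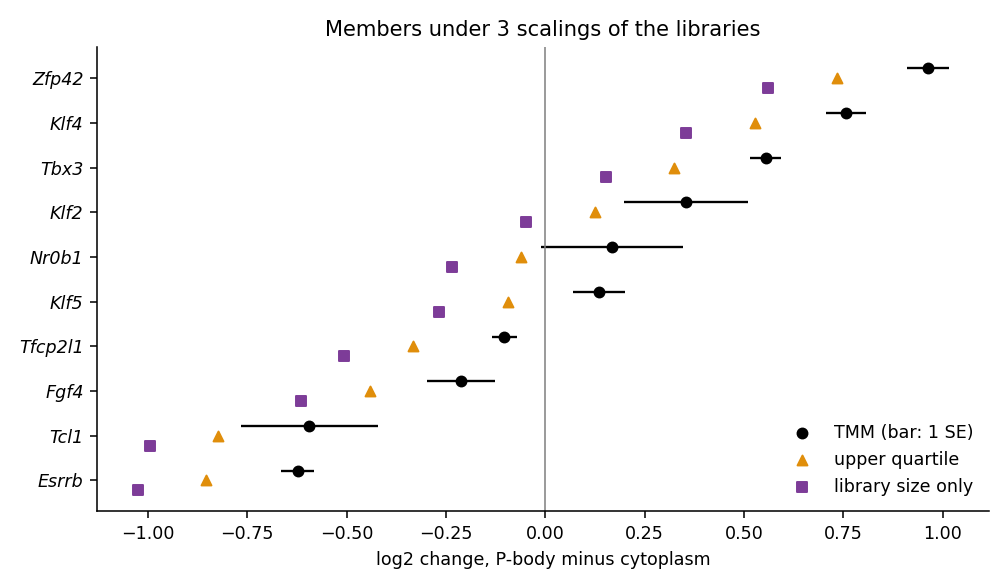
Log2 change (P-body minus cytoplasm) of each member with TMM factors (black circles, bars of 1 SE), upper-quartile factors (orange triangles) and library totals alone (purple squares). Changing the scaling moves all members together, so that Klf5 and Nr0b1 cross 0 under both alternatives and Klf2 with library totals alone, while Zfp42, Klf4 and Tbx3 stay above 0 and Esrrb, Tcl1, Fgf4 and Tfcp2l1 stay below.

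The genes whose profile over the 4 libraries was nearest to Zfp42, after subtracting each gene's mean log2 CPM and among 1745 genes within 2-fold of its level, were Trp53bp2, Axin2 and Ppp1r12a. Their root mean square differences were 0.0082, 0.014 and 0.019 on the log2 scale, and their log2 changes were 0.98, 0.98 and 0.93. Axin2 is a component and target of the β-catenin pathway. The genes nearest to Esrrb among 1020 included Rpsa and Rplp0, which encode ribosomal proteins, at 0.011 and 0.018, with log2 changes of -0.63 and -0.60. With 4 libraries in 2 groups, likeness rests mostly on the log2 change itself.

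The other genes of the network were divided as well. The counts of this and the following lists stand beside those of all 15881 genes. With TMM, 25.8% of all genes were enriched and 20.6% depleted. With library totals alone, 2591 were enriched and 6609 depleted. Among 16 core and other naive factors, 9 were enriched, 6 depleted and 1 did not pass, with a median log2 change of 0.25. With library totals alone, 5 were enriched and 8 depleted, and the median was -0.15. Sox2 was the most enriched of them, at 529 and 539.9 CPM against 228 and 241 CPM (log2 change 1.19, edgeR adjusted p = 4.00e-17). Prdm14, a repressor of FGF signalling and DNA methylation, stood at 155 and 155 CPM against 73.8 and 69.8 CPM (1.11, adjusted p = 1.42e-13). Pou5f1 was depleted, at 429 and 448 CPM against 561 and 573 CPM (-0.37, adjusted p = 3.43e-08). Nanog, at 736 and 752 CPM against 629 and 599 CPM, was enriched with TMM (0.28, adjusted p = 1.81e-06) and turned to -0.13 with library totals alone. Utf1, a chromatin-associated factor, had the lowest called change of this list (-0.54, adjusted p = 0.0457), and it did not pass with DESeq2 or when any of the 4 libraries was left out. Sox2, Nanog and Pou5f1 were also the markers used to check the cells, and all were abundant in every library.

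In the LIF and STAT3 pathway, 4 of 13 genes were enriched, 3 depleted and 6 did not pass, with a median of 0.16. With library totals alone, 1 was enriched and 6 depleted, and the median was -0.24. Il6st (gp130), the signalling subunit of the LIF receptor, was the most enriched, at 614 and 603 CPM against 333 and 349.96 CPM (0.83, edgeR adjusted p = 1.26e-14). Lifr, the ligand-binding subunit, changed by 0.35 (adjusted p = 0.000247) and Stat3 by 0.32 (adjusted p = 0.00117), and both took a negative sign with library totals alone, at -0.06 and -0.09. Socs3, the feedback inhibitor, had a log2 change of 0.34 that did not pass (adjusted p = 0.111) and that was -0.06 with library totals alone. The kinase Pim3 was depleted, at 9.05 and 7.59 CPM against 11.4 and 13.8 CPM (-0.59, adjusted p = 0.0122), and was not called with DESeq2 (0.102), without P-body library 2 (0.153) or without cytoplasm library 2 (0.107).

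In the FGF and ERK pathway, which carries the Fgf4 signal, 12 of 26 genes were enriched, 1 was depleted and 13 did not pass. The median of 0.20 turned to -0.20 with library totals alone, where 7 were enriched and 11 depleted. Under that scaling 2591 of all 15881 genes were enriched and 6609 depleted. The receptor Fgfr1 was the depleted gene, at 66.4 and 70.9 CPM against 91.5 and 84.6 CPM (-0.36, edgeR adjusted p = 0.000254). Dusp6, an ERK phosphatase, was counted 7, 14, 19 and 7 times and was not resolved at this depth (-0.34, adjusted p = 0.669).

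In the β-catenin, GSK3 and TCF7L1 axis, which controls Esrrb, 4 of 10 genes were enriched, 4 depleted and 2 did not pass, with a median of 0.03. With library totals alone, 2 were enriched and 6 depleted, and the median was -0.37. Axin2 was enriched, at 209 and 205 CPM against 101 and 108 CPM (0.98, edgeR adjusted p = 1.73e-13). Tcf7l1, the repressor of Esrrb, was depleted, at 59.5 and 56.6 CPM against 113 and 107 CPM (-0.92, adjusted p = 6.64e-11), and so was the kinase Gsk3a (-0.99, adjusted p = 4.63e-11). In the PI3K and AKT pathway, to which Tcl1 belongs, 6 of 10 genes were enriched, 1 depleted and 3 did not pass, with a median of 0.67 (0.27 with library totals alone). Pik3r1, the regulatory subunit of PI3K, stood at 144 and 149 CPM against 66.5 and 65.99 CPM (1.15, adjusted p = 1.18e-13), and Mtor was the depleted gene (-0.66, adjusted p = 1.23e-10).

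Formative and primed factors mark exit from the naive state. The highest of those measured was Eomes, at 29.5 and 31.6 CPM in P-bodies and 27.3 and 23.7 CPM in cytoplasm. In P-bodies Eomes, Lef1, Nodal and Zic2 had more CPM than the members Klf2, Nr0b1 and Tcl1, without regard to transcript length. Of 10 measured, 2 were enriched, 2 depleted and 6 did not pass, with a median of 0.07. With library totals alone, 1 was enriched and 5 depleted, and the median was -0.33. Otx2, a driver of the formative state, was enriched, at 6.59 and 6.33 CPM against 3.19 and 2.07 CPM (1.30, edgeR adjusted p = 0.000451). Fgf5 was called depleted (adjusted p = 0.0474) on 1 and 3 counts in P-bodies and 14 and 5 in cytoplasm, and the call was lost without P-body library 1 (0.201), without cytoplasm library 1 (0.441) and with DESeq2 (0.185). The DNA methyltransferase Dnmt3b, at 7.97 and 11.1 CPM against 10.7 and 9.43 CPM, overlapped between fractions (-0.09, adjusted p = 0.75).

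Among other Krüppel-like genes, 8 of 13 measured were enriched, 1 was depleted and 4 did not pass. Their median was 0.77 with TMM and 0.37 with library totals alone, where 7 were enriched and 1 depleted. Klf7 had the highest called change, at 40.4 and 39.8 CPM against 12.9 and 13.8 CPM (1.59, edgeR adjusted p = 9.07e-11), and Klf13 was the depleted gene, at 43.8 and 40.9 CPM against 55.5 and 56.4 CPM (-0.40, adjusted p = 0.000541). Among 13 measured paralogs of the other members, 6 were enriched, 0 depleted and 7 did not pass, with a median of 0.32 that turned to -0.09 with library totals alone. The 0 depleted genes by edgeR stood beside 1 at an unadjusted p under 0.05, 0 with DESeq2 and 3 with library totals alone. Tbx4, a relative of Tbx3, had 38 and 38 counts against 19 and 9 (1.39, adjusted p = 0.00404) and was not called with DESeq2 (0.0578) or without cytoplasm library 2 (0.0655). Yy1, the relative of Zfp42, changed by 0.32 with TMM (adjusted p = 0.00221) and by -0.09, not called, with library totals alone.

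**Figure D3:**
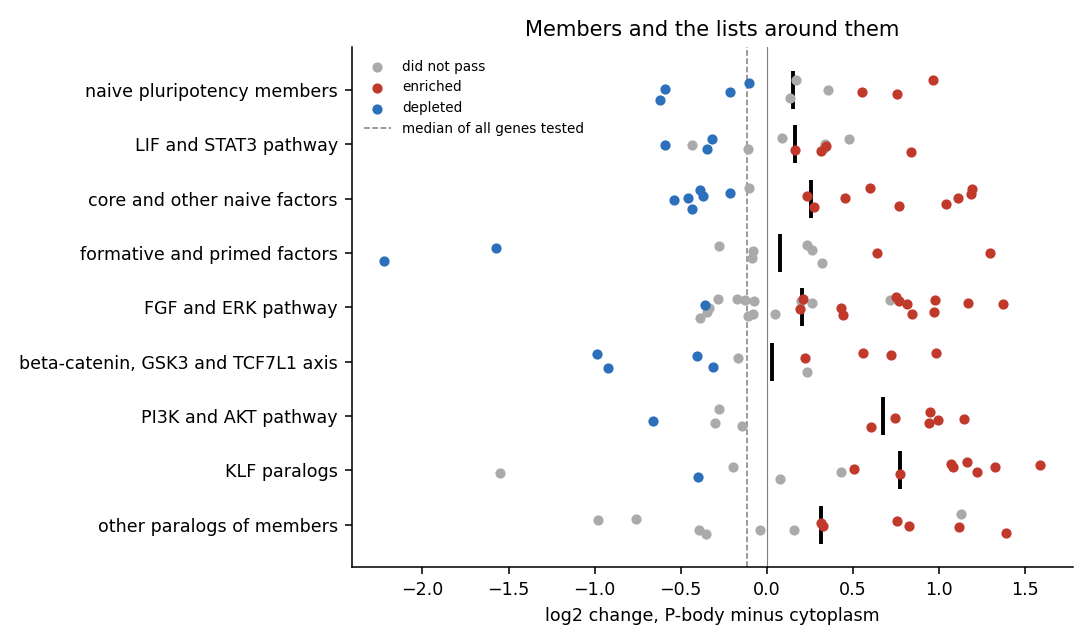
Log2 change (P-body minus cytoplasm, TMM) of every measured gene of the 10 members and of 8 lists around them, with enriched genes in red, depleted in blue and those that did not pass in grey. Black bars are list medians and the dashed line is the median of all genes tested, -0.11. Vertical spread within a list is only to separate points. The KLF paralogs and the PI3K and AKT pathway have the highest medians, 0.77 and 0.67.

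Markers of other cells that an ES culture can hold were low, apart from the Zscan4 genes among those of 2-cell-like cells. Summed levels of 4 measured trophectoderm markers were 3.74 and 4.64 CPM in P-bodies and 4.14 and 5.59 CPM in cytoplasm, and 0 of 4 were called by edgeR or DESeq2. At an unadjusted p under 0.05, edgeR also gave 0 of 4. For 6 primitive endoderm markers the sums were 14.9 and 12.1 CPM against 13.2 and 11.8 CPM, and Foxa2 was the only one called, on 4 and 7 counts against 0 and 1, and it was not called enriched with upper-quartile factors or library totals alone. Of 6 markers of 2-cell-like cells, 3 were enriched, and the sum was 246 and 235 CPM against 99.9 and 99.4 CPM. Those 3 were Zscan4f (1.31), Zscan4c (1.30) and Zscan4d (1.06), near-identical genes among which reads can be divided. The other markers of that list were low and not called. Mean levels in P-bodies and cytoplasm were 1.83 and 1.05 CPM for Zfp352, 0.257 and 0.312 CPM for Tcstv3, and 0.295 and 0.474 CPM for Tcstv1. The 8 fibroblast markers listed gave no value and were not analysed here. Of 4 measured nuclear RNAs, Malat1 was enriched with TMM (0.22) and took a value of -0.18 with library totals alone, where 0 were enriched and 4 depleted, and Neat1 was depleted (-1.77). Their list summed to 699 and 695 CPM against 628 and 641 CPM. The part of these RNAs in the members' values was not tested.

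What the members share was examined in their GENCODE M21 transcripts (the longest coding sequence per gene), which may differ from the isoforms that were counted. The 3′ UTR of the 3 enriched members held 33.0% (Zfp42), 37.6% (Klf4) and 43.5% (Tbx3) G and C. For the 4 depleted members it held 45.5% (Tfcp2l1), 46.3% (Fgf4), 50.7% (Tcl1) and 53.6% (Esrrb). All 4 depleted members thus had a higher GC content there than all 3 enriched members, and the extremes of log2 change, Zfp42 and Esrrb, were near the extremes of GC content. Nr0b1, at 31.8%, and Klf5, at 36.1%, had low GC content without passing the test, and Klf2 had 48.2%. Across the 10 members, Spearman's rho between 3′ UTR GC content and log2 change was -0.68, and it was -0.51 across the 11302 genes with a 3′ UTR and at least 1 CPM and -0.25 across all 14224 genes with a 3′ UTR, all measured in the same 4 libraries. The GC content of the whole transcript followed the members' log2 change less closely (rho = -0.19, against -0.61 across 11542 genes of at least 1 CPM and -0.27 across all 14639), and so did that at the third position of codons (rho = -0.24, against -0.52 and -0.30). For the GC content of the coding sequence, rho was 0.067 across the members, against -0.55 and -0.26. For 3′ UTR length, rho was -0.50 across the members and 0.20 across the 11542 genes. The GC content of the 3′ UTR was not among the features planned, and its rho over the members was the largest in size of those examined. An order of features over 10 genes is uncertain. Across genes of at least 1 CPM the whole transcript had the larger rho, -0.61 against -0.51. The 3′ UTRs ranged from 352 bases in Nr0b1 to 7734 bases in Tfcp2l1.

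**Figure D4:**
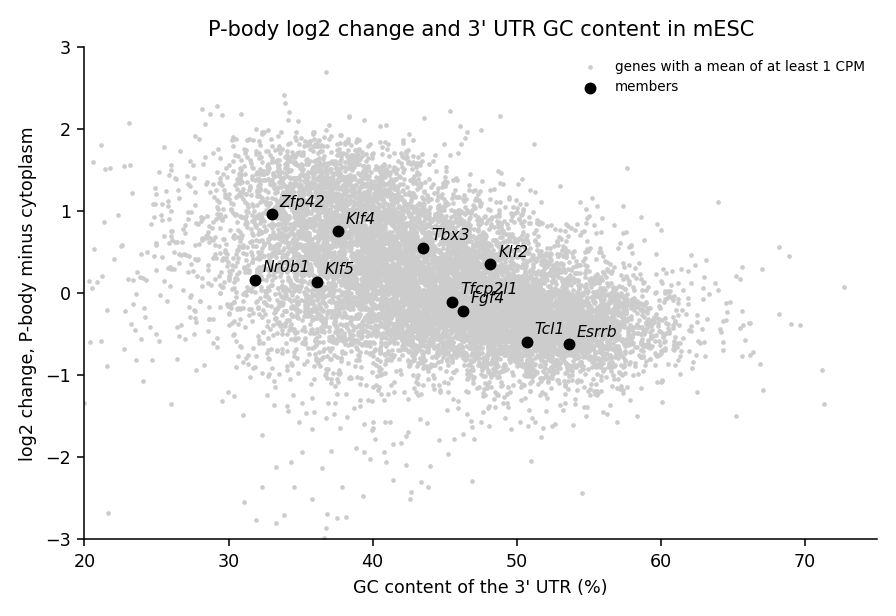
GC content of the 3′ UTR (percent) against log2 change in mESC for the 10 members (black, named) and for genes that averaged 1 CPM or more (grey), of which 36 of 11302 lie outside the axes. Zfp42 and Klf4 sit at the upper left and Tcl1 and Esrrb at the lower right, while Nr0b1 and Klf5 are low in GC content and near 0.

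The human symbols of the members were set beside the mouse values as a description, since organism, cell type and, in part, library kit differ together. The human libraries were from HEK293T, a human embryonic kidney line, and from liver bud progenitors and day 20 neurons made from human ES cells, with 2 libraries per fraction. The latter 2 were polyA libraries. ZFP42 was counted well in liver bud progenitors, at 132 and 126 CPM in P-bodies and 63.7 and 70.8 CPM in cytoplasm. That log2 ratio, 0.94, lay beside 0.96 for Zfp42 in mESC. TBX3 was higher in HEK293T P-bodies, at 129.9 and 129 CPM against 76.0 and 76.8 CPM (log2 ratio 0.76). In liver bud progenitors it was lower there, at 12.6 and 15.5 CPM against 26.6 and 29.6 CPM (-1.002).

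TFCP2L1 was lower in P-bodies of HEK293T (-0.79) and of liver bud progenitors (-0.67), as Tfcp2l1 was in mESC. In neurons it was far higher in P-bodies, at 5.52 and 4.55 CPM against 0.472 and 0.60 CPM, from 50, 46, 5 and 6 counts. TFCP2L1 was not alone in this direction. All human symbols counted in neurons had a higher mean in P-bodies, all but TFCP2L1 and KLF5 with a library at or under 3 counts. KLF5 had log2 ratios of 0.59 in HEK293T, -0.29 in liver bud progenitors and 1.18 in neurons, and KLF4 had 0.41 in HEK293T, from 25 to 63 counts a library, and 0.24 with overlapping fractions in liver bud progenitors. FGF4 was counted in liver bud progenitors alone above the floor in every library, at 6.28 and 6.21 CPM against 4.10 and 2.66 CPM. ZFP42 in the other human cell types, and ESRRB, KLF2 and TCL1A throughout, had at least 1 library at or under 3 counts in each cell type in which they had counts, and no ratio is given. NR0B1 was not analysed here.

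**Figure D5:**
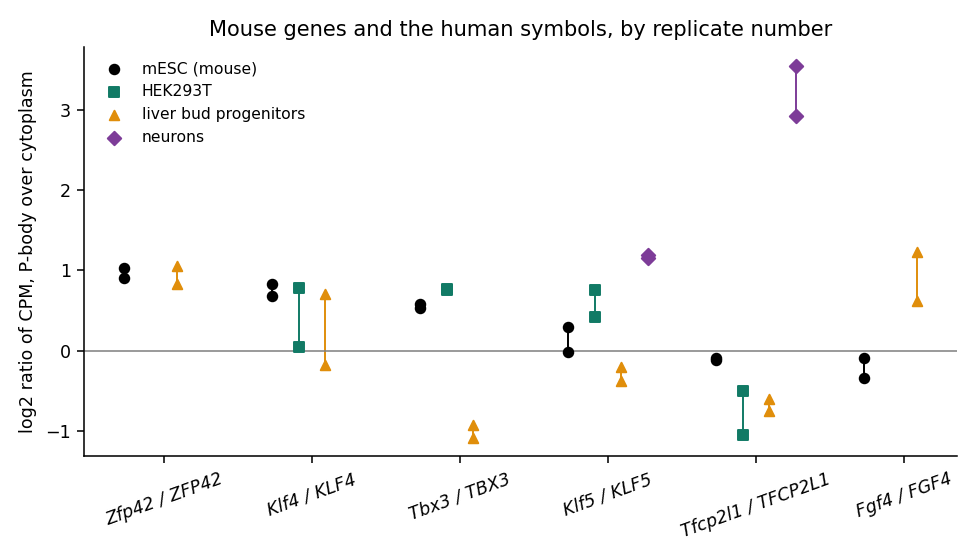
Log2 ratio of CPM, P-body over cytoplasm, for libraries of the same replicate number (points, joined by a line) in mESC and in the human cell types, for symbols above 3 counts in every library of a cell type. Zfp42 and ZFP42 lie near 1 in both cell types shown, Tbx3 and TBX3 lie on both sides of 0, and TFCP2L1 in neurons is the highest value.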

How the data were processed

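RNA from P-bodies sorted by GFP-LSM14A fluorescence and from the cytoplasm before sorting was sequenced by the authors, and mESC libraries were primed at random (the Snap seq protocol of the labels). The authors deposited whole-number counts per gene symbol, made per their methods with the nf-core RNA-seq pipeline and salmon on mm10 with UCSC refGene. Genes with fewer than 10 reads were left out (the smallest total was 10). Salmon divides reads among similar transcripts. The authors' own comparison tables (fold changes and adjusted p-values from DESeq2) were not used.

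Groups came from the labels. The 4 mESC libraries were fitted with edgeR 4.0.16 in R 4.3.3 (TMM, quasi-likelihood, two-sided, no covariate, Benjamini-Hochberg over 15881 genes, called under 0.05), which was tested on simulated data. SEs were derived from the F statistic. Levels are TMM-normalised CPM. Floors cover counting error only, since reads carry no molecular identifiers. Replicate chi-squares were 2.15 and 2.87 per gene, above sampling noise. Transcript features came from GENCODE M21 (mm10), which matched 92.2% of symbols. Named genes were the members, the extreme called genes of each list, set regulators, and the 3 genes most like the highest and the lowest member (pseudocount 0.5 CPM). Of the genes this rule names, 2 are not reported here. Marker genes were named after their values were seen. Alternatives were RLE, upper-quartile and library-size scaling, DESeq2 1.42.0, filterByExpr, a replicate block, leaving out ribosomal RNA genes, and leaving out each library. The members and lists were chosen with earlier results of these data known.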

Additional observations from a re-analysis of the deposited data

Results flagged for a closer look

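Among human symbols above 3 counts in every library of a cell type, 3 comparisons had both replicate numbers on the other side of 0 from both replicate numbers of mESC. TFCP2L1 in day 20 neurons had a log2 ratio, P-body over cytoplasm, of 3.23, against a log2 change of -0.10 for Tfcp2l1 in mESC. FGF4 in liver bud progenitors had 0.89, against -0.21 for Fgf4. TBX3 in liver bud progenitors had -1.002, against 0.55 for Tbx3. These differences were not tested, and organism, cell type and library kit cannot be told apart in them. Each human cell type was scaled on its own, and the share of all human genes on either side of 0 is not given here. The neuron value rests on 5 and 6 counts in cytoplasm, and all human symbols counted in neurons had a higher mean in P-bodies. The mESC value of Tfcp2l1 was almost equal to the median of all genes, -0.11. Fgf4 kept its sign in mESC, but its call was lost in 5 of 11 alternatives.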

How the results depend on the processing

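Zfp42, Klf4, Tbx3 and Esrrb kept their direction and their call in all 11 alternatives. With library totals alone, 2591 genes were enriched and 6609 depleted, the median of all genes was -0.51, and the members' median was -0.25. Under that setting log2 changes were -0.048 for Klf2, -0.27 for Klf5, -0.23 for Nr0b1, -0.086 for Yy1, -0.13 for Nanog, -0.087 for Stat3, -0.057 for Lifr and -0.062 for Socs3. With upper-quartile factors, 5194 genes were depleted, the median of all genes was -0.34, the members' median was -0.078, Klf5 was at -0.094 and Nr0b1 at -0.062. Both settings shift all genes by nearly the same amount, by construction. With DESeq2, 1803 genes and 2 members were depleted, and the cause was not tested. Leaving out each library gave 3 to 5 enriched and 1 to 4 depleted members, with the lone library of a fraction assumed to vary like the others. The 5 came without cytoplasm library 1, where 2 were depleted, and the 1 without P-body library 2. Over these fits the log2 change of Dusp6 ranged from -0.95 to 0.56 and that of Dnmt3b from -0.31 to 0.14. With a replicate block, 4158 genes were enriched and 3244 depleted, 3 members were enriched and 4 depleted, and the members' median was 0.15. Deviations of same-numbered libraries, with only 2 pairs of numbers, correlated at 0.047 over 12110 genes. By the methods of the study, P-bodies were sorted from a cytoplasmic fraction of which an aliquot was kept. Whether equal numbers mark such a pair is not in the labels. The block changed no member's call, while Fgf5 did not pass under it (adjusted p = 0.0679). Nr0b1, Tcl1, Klf2, Fgf5 and Dusp6 had at most 184 counts in any library, and the effect of depth on their calls was not tested.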
